A study of Triticum aestivum with 16 samples.

Results

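Root and shoot apex of the bread wheat cultivar AiKang58 (AK58) were compared by sequencing of messenger RNA. The comparison holds 4 of the 16 libraries of the series, chosen by their labels: 2 of AK58 roots and 2 of AK58 shoot apices, all from seedlings grown for 2 weeks at 22 °C in the light and 19 °C in the dark, with no mutation, treatment or cold given for either tissue. AK58 leaves of the same age (2 libraries) and AK58 axillary buds of 6 weeks taken after 30 days at 4 °C (2 libraries) serve as points of reference. So do wild type (WT) shoot apices and axillary buds of the cultivar Zhengmai7698 (ZM7698, 2 libraries of each tissue, at 2 weeks). Nothing in the labels says how many plants a library pools or that replicates came from separate plants, and the p-values given here cover only how far these samples vary.

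The shoot apex holds the meristem that forms leaves, tiller buds and later the spike, with the youngest leaves around it. The root takes up water and nutrients, and behind the meristem at its tip it consists mostly of cells that have stopped dividing. A whole root and a whole apex therefore differ both in organ identity and in the share of dividing tissue they hold. In bulk tissue, fewer cells of a type and less RNA per cell cannot be told apart.

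The deposited AK58 values were whole reads divided by 1 factor per library, given here as normalised reads. Gene length is not accounted for, and levels were therefore compared between libraries, never between genes. The 4 libraries held 51497044 to 66843143 reads. Each table lists 120744 identifiers, and 69525 had at least 10 normalised reads in at least 2 of the 8 AK58 libraries and were tested. These are called genes here, since 68819 of them are wheat genes and 706 are noncoding RNAs.

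The replicates were unlike in root and alike in apex, and this bears on each result that follows. In root, 27.05% of tested genes lay at least 4-fold apart between the replicates, on log2 of normalised reads + 1, against 4.05% in apex, 4.47% in leaf and 2.90% in bud. Of the 18806 genes apart in root, 17777 were higher in replicate 2 and 1029 in replicate 1. At least 10 normalised reads were found for 56072 identifiers in root replicate 1 and 65573 in root replicate 2, against 58563 and 59189 in the apex libraries. Root replicate 1 correlated with root replicate 2 at r = 0.770 across genes, and with the leaf libraries at 0.758 and 0.770. Root replicate 2 correlated with leaf at 0.526 and 0.519. Across all tested genes replicate 2 was not nearer to both apices, at r = 0.505 and 0.530, against 0.571 and 0.518 for replicate 1. These correlations are across genes, which are not independent replicates, and the libraries share 1 normalization.

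**Figure D1:**
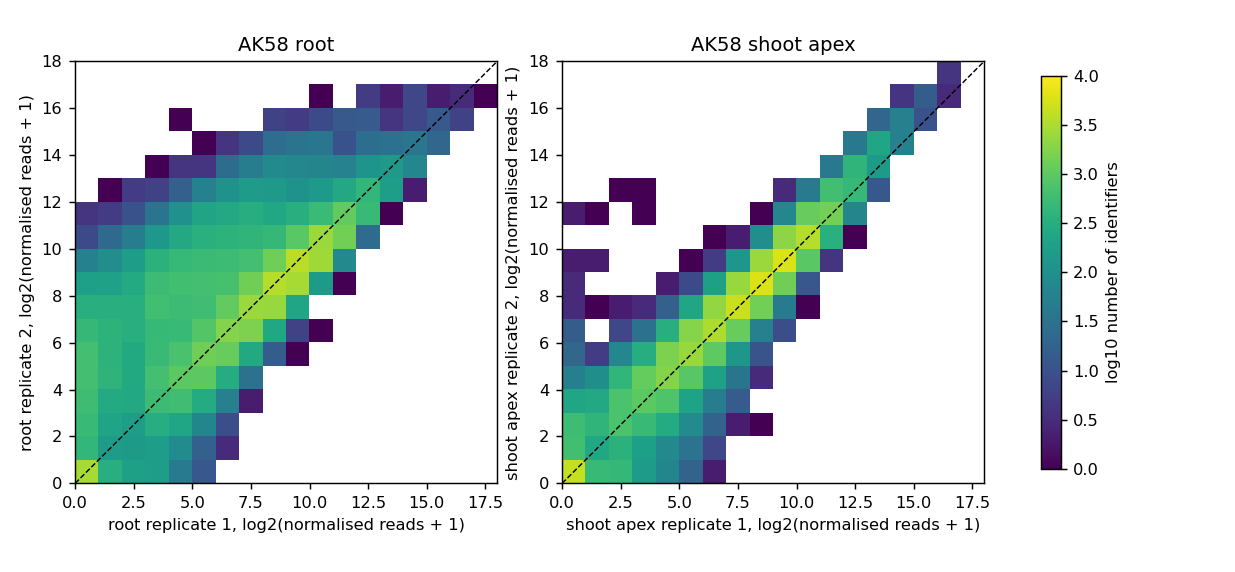
Number of tested identifiers (colour, log10 scale) by their level in replicate 1 (x axis) and replicate 2 (y axis), each as log2(normalised reads + 1), for AK58 root and AK58 shoot apex. Apex identifiers follow the dashed line of equal levels, whereas in root 17777 identifiers lay at least 4-fold above in replicate 2 and 1029 at least 4-fold above in replicate 1.

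Most genes of root replicate 1 that no other AK58 tissue showed were also found in root replicate 2, and the reverse held less often. Of 1439 identifiers with at least 10 normalised reads in root replicate 1 and 0 reads in all leaf, apex and bud libraries, 1290 (89.6%) also had at least 10 in root replicate 2, with a median of 41.1 normalised reads in replicate 1 and 113 in replicate 2. Of 2542 such identifiers chosen in replicate 2, the same 1290 (50.7%) reached 10 in replicate 1 and 520 (20.5%) had 0 reads there. Over all 120744 identifiers, 65573 reached 10 in root replicate 2 and 56072 in root replicate 1. Of all identifiers, 47017 reached 10 in both root and both apex libraries. Counts over all identifiers are therefore no matched background for identifiers at 0 in leaf, apex and bud, and a matched one was not counted. This overlap between the root libraries does not check the root label. No marker genes of root cell types were checked, because neither the files nor the reference pair identifiers with names.

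With both root libraries as 1 group, 14007 genes (20.1% of those tested) were higher in root than in apex and 9767 (14%) were lower, with an adjusted p under 0.05 in limma and at least a 2-fold change. Among the called genes, the median log2 fold change was 3.56 for those higher in root and -3.13 for those lower, and 3103 were at least 64-fold higher and 1470 at least 64-fold lower. The counts rested on single libraries: 9050 were higher and 4441 lower without apex replicate 1, 9117 and 3690 without apex replicate 2, and 18960 were lower without root replicate 2. In a fit of the root and apex libraries alone, 7524 were higher and 4114 lower. The median difference of all tested genes was -0.01 on the log2 scale, and -0.19 with quantile normalization.

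The genes with the largest changes were at or next to 0 reads in 1 of the tissues. TraesCS4B02G237300, on chromosome 4B, stood at 28104 and 98920.3 normalised reads in root replicates 1 and 2 and had 0 reads in both apex libraries. Taking 3 reads as the floor of each apex library, its mean was at least 24945-fold higher in root (limma adjusted p = 0.000237). TraesCS4D02G238600, on chromosome 4D, stood at 20776 and 110319 in root, with 0 reads in leaf, apex and bud (limma adjusted p = 0.000240). In the other direction, TraesCS3A02G164300 had 0 reads in both root libraries and stood at 18475 and 27722 in apex, at least 8185-fold lower in root (limma adjusted p = 0.000112). TraesCS3A02G344700 stood at 34211.5 and 69213 in apex, with 0 and 1.88 normalised reads in root replicates 1 and 2 (limma adjusted p = 0.000228). The levels of the first pair differed between the root libraries by more than 3-fold, while both apex genes were at or next to 0 in both root libraries. The files and the reference do not pair these identifiers with names.

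Genes called in either direction were also seen in the other tissues to different extents. Of those higher in root, 71.3% had at least 10 normalised reads in both leaf libraries and 61.8% in both bud libraries, against 76.1% and 80.2% of all tested genes. Of those lower in root, the shares were 69.7% in leaf and 83.3% in bud. In 7746 of the genes higher in root (55.3%) both root libraries lay above every leaf, apex and bud library, and in 6214 of the genes lower in root (63.6%) both apex libraries lay above every other AK58 library. Over all tested genes, whether called or not, these orders held for 15.1% and 17%. Called genes were chosen by the gap between root and apex in these same libraries. Part of each order follows from the call, so its excess over all tested genes is not a separate result.

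Apices of ZM7698, a cultivar that no test used, were listed by the same identifiers in TPM, a length-corrected unit. At least 1 TPM in both WT apex libraries was found for 43.5% of the genes higher in AK58 root, 63.8% of all tested genes and 70.2% of the genes lower in AK58 root. The shares listed at 0 in both libraries were 14.7%, 5.07% and 2.09%. In the 2 ZM7698 WT axillary bud libraries the shares at 1 TPM or more were nearly the same, at 43.0%, 62.5% and 69.0%. The genes called lower in AK58 root were thus listed in both tissues of the other cultivar more often than those called higher. The calls themselves lead towards this order: 27.2% of the genes higher in root had 0 reads in AK58 apex replicate 1, against 0% of those lower.

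Each root library was then set against the apex on its own, in a fit where it stood as 1 library and was taken to vary like the leaf, apex and bud pairs. These contrasts share the apex libraries. Their p-values, and those between the 2 root libraries below, do not measure how root samples vary. Replicate 1 had 14620 genes (21%) higher and 17813 (25.6%) lower than apex, 46.6% of those tested in all. Replicate 2 had 18426 (26.5%) higher and 11211 (16.1%) lower, 42.6% in all. Of the called genes, 45.1% were higher in replicate 1 and 62.2% in replicate 2. Centring each library on its median turned these shares to 56.5% and 44.1%, and quantile normalization to 52.1% and 43.3%, with 20153 and 21906 genes lower in replicate 2. Centring moved the median difference of all tested genes from -0.07 to 0.37 on the log2 scale in replicate 1 and from 0.13 to -0.43 in replicate 2. Scaling by library total, chosen after the data were seen, gave 48.3% and 54.2%. The identifiers with the largest changes were shared in part with those above: TraesCS3D02G177100 had 0 and 5.64 normalised reads in root and 32413 and 50179.5 in apex, TraesCS4B02G368400 had 7969 and 106018 in root and 0 in apex, and TraesCS3B02G157800 had 0 in root and 14324 and 24239 in apex.

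Set directly against replicate 1, replicate 2 had 13294 genes (19.1%) higher and 1416 (2.04%) lower, so 90.4% of called genes were higher. This split depended on scaling: it was 83.8% with scaling by library total, 37.6% with median centring and 42.3% with quantile normalization, and centring moved the median difference of all tested genes from 0.10 to -0.90 on the log2 scale. The bud libraries enter this contrast through the spread, the filter and the adjustment, not through the difference itself. Leaving out either of them left fewer genes called in both directions. TraesCS1B02G042200 had 0 reads in root replicate 1, 2761 normalised reads in root replicate 2, and 12617 and 27775 in apex, at least 1230-fold higher in root replicate 2 than in replicate 1 (limma adjusted p = 0.00615). TraesCS4A02G462400 had 0 reads in replicate 1, 2073 in replicate 2, and 246 and 491 in apex (limma adjusted p = 0.0130). The largest decreases were small in level: TraesCS3B02G364900 stood at 52.4 in replicate 1 and 0 in replicate 2, and TraesCS7B02G080900 at 64.3 and 1.88 (limma adjusted p = 0.00537 and 0.0195). Without either bud library TraesCS7B02G080900 did not pass (limma adjusted p = 0.0609 and 0.0610).

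Counts of genes that were present in some libraries and had 0 reads in others showed the same asymmetry. An identifier was taken as detected at 10 normalised reads or more and as absent at 0 reads, which allows up to 2.24 to 2.82 normalised reads with a floor of 3 reads. Of 90989 identifiers that could be placed so, 47017 were detected in all 4 libraries. Both root libraries detected 2806 that were absent from apex, and apex detected 1525 that were absent from both root libraries. Root replicate 2 and apex shared 1559 that were absent from root replicate 1, whereas root replicate 1 and apex shared 40 that were absent from replicate 2. Replicate 2 alone held 911 and replicate 1 alone held 30.

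**Figure D2:**
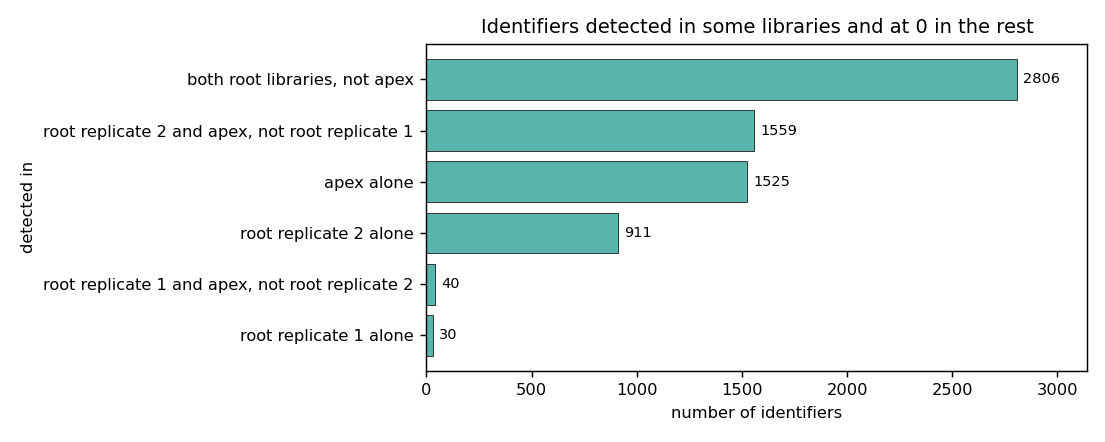
Number of identifiers (x axis) detected at 10 normalised reads or more in the libraries named on the y axis and at 0 reads in the rest of the AK58 root and shoot apex libraries. Root replicate 2 shared 1559 identifiers with the apex that replicate 1 lacked, and replicate 1 shared 40 that replicate 2 lacked.

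These classes differed in where else their members were found, in libraries that did not define them. Of the 2806 identifiers of both root libraries, 20.2% were detected in both leaf libraries, 8.41% in both bud libraries and 1.71% at 1 TPM or more in both ZM7698 WT apices. Of the 1559 shared by root replicate 2 and apex, 13.5% were detected in leaf, 72.5% in bud and 59.1% in the ZM7698 apex. In the same order, the shares were 30.7%, 53.7% and 38.4% of the 1525 detected in apex and absent from both root libraries. They were 94.2%, 95.4% and 81.5% of the 47017 detected in all 4 libraries, and 76.1%, 80.2% and 63.8% of all tested genes. Of these classes, only the 47017 thus exceeded all tested genes in detection in bud and in the ZM7698 apex. For the 1559 and the 1525, both shares lay below those of all tested genes and above those of the 2806. Of the 911 seen in root replicate 2 alone, the shares were 3.403%, 5.49% and 0.988%. TraesCS6A02G386200, one of these, had 934 normalised reads in root replicate 2 and 0 reads in every other AK58 library. It was not tested, since a gene detected in 1 library cannot pass the filter.

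Genes that set the other tissues apart were followed into the root libraries, using sets called in a fit without root. The leaf set, 8775 genes higher in leaf than in both apex and bud, had medians of 349 and 377 normalised reads in root replicates 1 and 2, against 729 and 478 in leaf and 64.3 and 62.0 in apex. The root libraries were alike for this set, and both lay nearer to leaf than to apex. The apex set, 7954 genes higher in apex than in leaf and bud, had medians of 20.9 in root replicate 1 and 124 in replicate 2, against 234 and 308 in apex. The bud set of 3513 genes had medians of 16.5 and 222, against 447 and 470 in bud and 43.4 and 62.8 in apex. Replicate 2 was at least 4-fold above replicate 1 for 7.65% of the leaf set, 45.3% of the apex set and 58.1% of the bud set, against 24.1% of all 64722 genes in that fit. The gap between the root libraries was thus widest in the bud set.

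**Figure D3:**
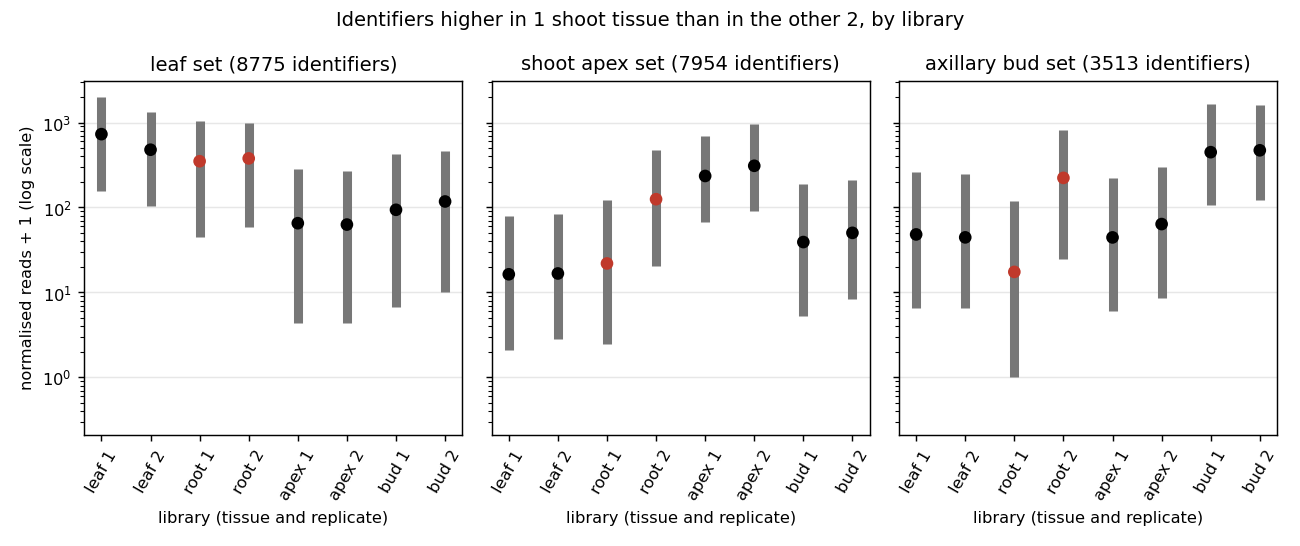
Level of the genes called higher in 1 shoot tissue than in the other 2, in a fit without root, in each AK58 library, as normalised reads + 1 on a log scale; points are medians (red for root) and bars span the quartiles. Root replicate 2 lies above replicate 1 in the apex set (124 against 20.9) and the bud set (222 against 16.5), and the replicates are alike in the leaf set (377 against 349).

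Replicate 2 did not hold the apex set as a whole. Its median level was 38.3% of the apex mean, gene by gene, against 8.45% in replicate 1. In replicate 2, 3416 of the 7954 genes (42.9%) stood at 50% of the apex level or more, while 974 (12.2%) stood under 1%, which in replicate 1 held for 2288 (28.8%).

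The side of the difference mattered in the same way. For 15949 genes at least 4-fold lower in replicate 1 than in both apices on average, replicate 2 stood at a median of 0.70 of the way from replicate 1 to apex on the log2 scale (quartiles 0.21 and 1.08), and 62.2% were nearer to apex. For 11118 genes at least 4-fold higher in replicate 1 than in apex, the median was -0.06, at the level of replicate 1 or beyond it, and 3.11% were nearer to apex. With genes chosen by replicate 2, replicate 1 stood at a median of 0 for 8397 genes lower than apex and 0.39 for 16275 genes higher. Choosing genes by a library's own value favours a wide gap in that library, so the sides can be compared only within each choice. For genes low in root replicate 1, replicate 2 lay mostly towards apex. For genes high in root replicate 1 it was high as well.

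Regulators of tillering, flowering and the spike gave named examples of these patterns. The list holds 34 gene copies, named by identifiers known from the literature, and no annotation was at hand to check these names. The A, B and D copies lie on the matching chromosomes of the 3 subgenomes of bread wheat. Of the 34, 23 passed the filter, some through apex or bud alone and TraesCS2A02G261200 through the root libraries alone. Such copies were admitted by the tissue where they are high, so the counts and the medians below only describe the list. Of those 23, 1 was higher and 11 lower in root than in apex, where 20.1% and 14% of all tested genes were called. The median log2 change was -3.32 over the 23 and -0.01 over all tested genes. Against apex, the median was -5.11 for replicate 1 and -1.15 for replicate 2, and -0.07 and 0.13 over all tested genes. The median for replicate 2 is the value of VRN1-5B, which had 1 or 2 reads in an apex library. Between the root libraries, 9 were higher in replicate 2 and 0 lower in limma and in edgeR, where 19.1% and 2.04% of all tested genes were called. The median log2 difference between the root libraries was 0.79 over the 23 and 0.10 over all tested genes. With quantile normalization, at least 8 copies were 2-fold or more higher in replicate 2. TraesCS2A02G261200, SVP1-6B and VRT2-7A were then lower, at -1.64, -1.01 and -1.38 on the log2 scale. The copies called between the root libraries were not the same in limma and edgeR: VRT2-7B was called in limma alone and Q-5A in edgeR alone. VRT2-7B lost its call in 12 of 17 alternative settings and changed sign, without a call, in 1 more. VRT2-7D lost its call in 4 of 17. The list concerns shoot development, so its direction says nothing of roots at large.

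VRT2, a MADS-box gene of the SVP family that acts in spike and flower development, fell in both root libraries in all copies. VRT2-7A stood at 7.48 and 12.2 normalised reads in root replicates 1 and 2 and at 3212 and 4781 in apex, -8.53 on the log2 scale with SE 0.33 (limma adjusted p = 0.000218). VRT2-7B stood at 7.48 and 20.7 in root and 5132 and 7317 in apex, and VRT2-7D at 31.4 and 94.1 against 3525 and 4736 (limma adjusted p = 0.000237 and 0.000487). Summed over copies, VRT2 in root was 0.323% of the apex level in replicate 1 and 0.885% in replicate 2. In each copy both root values lay below both apex values, an order that held for 30.8% of all tested genes.

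SVP1, of the same family, fell less. SVP1-6A stood at 604 and 773 in root and 2781 and 3663 in apex, -2.22 on the log2 scale with SE 0.26 (limma adjusted p = 0.00151), and SVP1-6B at 102 and 129 against 499 and 446 (limma adjusted p = 0.00215). SVP1-6D split the root libraries: it had 0 reads in replicate 1 and 31.0 normalised reads in replicate 2, within the apex values of 25.1 and 45.0 (limma adjusted p = 0.231 for root against apex and 0.0121 between the root libraries).

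TB1, a TCP transcription factor that represses bud outgrowth, had 0 reads of all 3 copies in both root libraries. The copies TB1-4A, TB1-4B and TB1-4D stood at 37.6 and 67.0, 29.2 and 38.2, and 41.8 and 41.6 normalised reads in the apex libraries. They were at least 18.5-, 11.9- and 14.8-fold lower in root (limma adjusted p = 0.000684, 0.000890 and 0.000722). VRN1-5A, a copy of a MADS-box gene whose rise in the cold brings on flowering, had 0 reads in root and 31.7 and 54.3 in apex, at least 15.2-fold lower (limma adjusted p = 0.00137). VRN1-5B reached 1.70 in apex and VRN1-5D had 0 reads in all 4 libraries. TB1 and VRN1-5A thus had no read in root replicate 2 either.

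RHT1 went apart between the root libraries in all 3 copies. It encodes DELLA proteins, which hold back growth until gibberellin brings about their removal and in which dwarfing alleles of wheat are known. RHT1-4A had 82.3 normalised reads in root replicate 1, 3101 in replicate 2, and 4197 and 6669 in apex. RHT1-4B stood at 83.0, 2880, 3963 and 6064, and RHT1-4D at 7.48, 3616, 4979 and 5754. All copies were below leaf in replicate 1, and near the apex level, though below it, in replicate 2. Summed over copies, replicate 2 was 55.5-fold above replicate 1, at 60.7% of the apex level against 1.09%. With both root libraries as a group, no copy passed: the log2 differences were -3.38 ± 1.503, -3.32 ± 1.47 and -4.93 ± 2.49 (SE), with limma adjusted p = 0.129, 0.128 and 0.171. With median centring RHT1-4A and RHT1-4B passed (limma adjusted p = 0.0417 and 0.0407), as all 3 did without root replicate 2. Replicate 2 on its own stood against apex at log2 differences of -0.77, -0.77 and -0.57. They were -1.34, -1.33 and -1.13 with median centring and -1.08, -1.10 and -0.90 with quantile normalization. Scaling by library total gave -1.12 for RHT1-4A and -1.11 for RHT1-4B. Whether a copy passed in this contrast depended on the scaling. Between the root libraries, 1 library against 1, the log2 differences were 5.22, 5.10 and 8.74, with replicate 2 the higher in each copy.

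**Figure D4:**
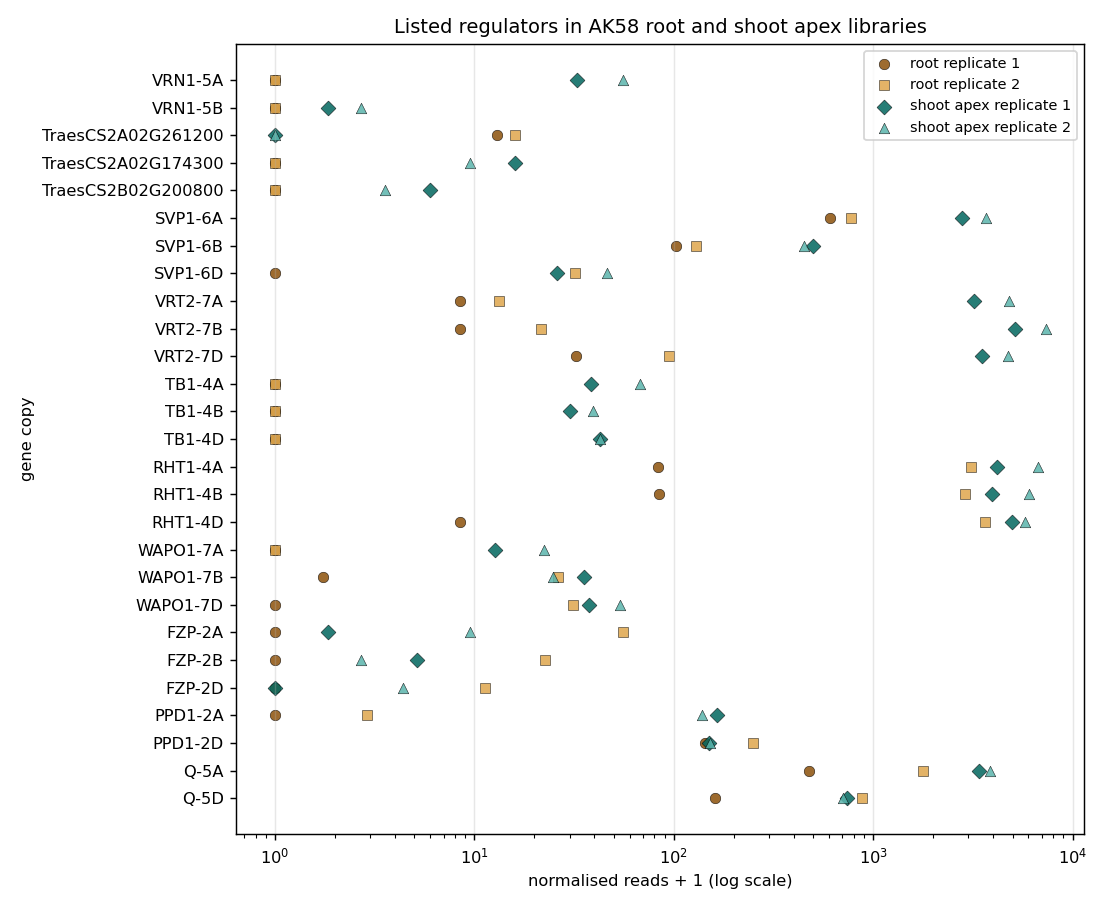
Level of each listed regulator copy with a read in AK58 root or shoot apex, as normalised reads + 1 on a log scale (x axis), in the 2 root and 2 shoot apex libraries; a point at 1 is a copy with 0 reads. RHT1 copies in root replicate 2 (2880 to 3616) lie near the apex and far from root replicate 1 (7.48 to 83.0), whereas VRT2 is low in both root libraries and TB1 is at 0 in both.

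WAPO1, which encodes an F-box protein and influences how many spikelets form, differed between its copies. WAPO1-7A had 0 reads in both root libraries and 11.7 and 21.2 normalised reads in apex, at least 5.83-fold lower in root (limma adjusted p = 0.00218). WAPO1-7B stood at 0.748 in root replicate 1, 25.4 in replicate 2, and 34.3 and 23.8 in apex, and WAPO1-7D at 0, 30.1, 36.8 and 52.6. Neither of these passed for root against apex (limma adjusted p = 0.215 and 0.172), and both were called higher in root replicate 2 than in replicate 1 (limma adjusted p = 0.00527 and 0.0146). DESeq2 did not call WAPO1-7A for root against apex or WAPO1-7B between the root libraries (adjusted p = 0.0947 and 0.113). In root replicate 2, 2 of the copies thus stood at or near apex level, and the remaining copy had no read.

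FZP, an AP2/ERF gene that keeps spikelets from forming branches, was highest in root replicate 2. FZP-2A had 0 reads in root replicate 1, 54.6 normalised reads in replicate 2, and 0.835 and 8.49 in apex. FZP-2B stood at 0, 21.6, 4.18 and 1.70 in the same order, and FZP-2D at 0, 10.3, 0 and 3.39. Leaf and bud had 0 reads of all copies. Each copy lay below the filter and was not tested. Q, an AP2-type gene of spike shape, was also higher in replicate 2: Q-5A stood at 476 and 1768.5 in root and 3377 and 3835 in apex, and Q-5D at 161 and 881 in root and 734 and 706 in apex. Between the root libraries, Q-5D passed (limma adjusted p = 0.0210) and Q-5A did not (limma adjusted p = 0.0656), though quantile normalization, edgeR with either scaling and DESeq2 called it (adjusted p = 0.0302, 0.0353, 0.0367 and 0.00571). For root against apex, Q-5A did not pass (limma adjusted p = 0.0535). It passed with median centring, quantile normalization and scaling by library total (limma adjusted p = 0.0125, 0.0178 and 0.0226), with DESeq2 (adjusted p = 0.0303) and without root replicate 2 (limma adjusted p = 0.000871). The call of Q-5D between the root libraries was lost when any 1 of the apex or bud libraries was left out, with its log2 difference unchanged at 2.45.

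The PPD1 copies, pseudo-response regulators of the photoperiod pathway, parted by subgenome. PPD1-2A stood at 0 and 1.88 normalised reads in root and 165 and 137 in apex, -6.48 on the log2 scale with SE 0.70 (limma adjusted p = 0.00122). PPD1-2D stood at 143 and 247 in root and 149 and 150.2 in apex and did not pass (0.33 on the log2 scale with SE 0.36; limma adjusted p = 0.514), with -0.06 without root replicate 2. TraesCS2A02G261200 was the 1 listed copy higher in root. It is listed among the copies of FUL2 and FUL3, MADS-box relatives of VRN1, and which of the pair it is could not be settled here. It stood at 11.97 and 15.1 in root, with 0 reads in leaf, apex and bud, at least 5.31-fold higher than in apex (limma adjusted p = 0.000615), and did not pass in DESeq2 (adjusted p = 0.290). FT1, the mobile flowering signal, had 0 reads of all 3 copies in root and apex.

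By numbered chromosome, the calls for root against apex lay within a narrow range. The share of tested genes higher in root ran from 19.1% on chromosome 5A to 22.3% on 2B, and the share lower from 12.5% on 6B to 15.7% on 5D. Over subgenomes, 19.9% of A, 20.4% of B and 20.5% of D genes were higher in root and 14.0%, 13.9% and 14.6% were lower. The D subgenome gave 34.6% and 35.4% of reads in root replicates 1 and 2 and 34.9% and 35.1% in apex. The root values enclosed the apex values.

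**Figure D5:**
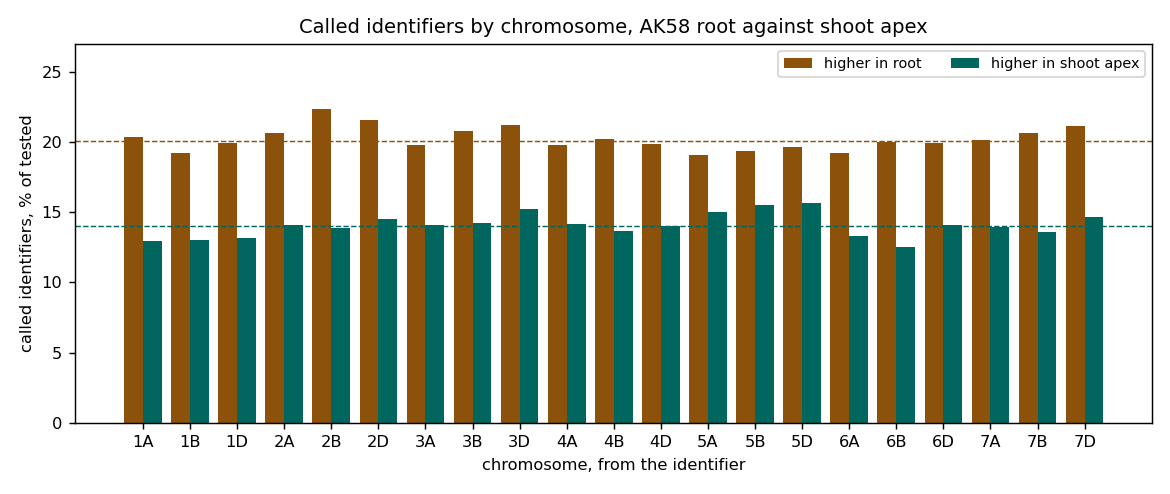
Share of tested genes called higher in root (brown) or higher in shoot apex (green) on each chromosome, read from the identifier, in percent; dashed lines give the share over all tested identifiers (20.1% and 14%). Chromosomes range from 19.1% to 22.3% and from 12.5% to 15.7%.

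Along a chromosome, most called genes were not followed by one called the same way. By identifier order, the next tested gene was also higher in root for 27.3% of the genes higher in root, and also lower for 19.0% of the genes lower, against 20.3% and 14.2% over placed genes. The longest runs higher in root held 15 neighbouring tested genes on chromosome 7A, from TraesCS7A02G273900 to TraesCS7A02G276000, and 12 on chromosome 7D, from TraesCS7D02G274200 to TraesCS7D02G275900. The median of the 7A run was 62.8 and 22.6 normalised reads in root replicates 1 and 2 and 0 in both apex libraries, and the median of the 7D run was 149 and 43.3 in root, against 0.835 and 0 in apex. Root replicate 2 had the lower median in both runs. The longest runs lower in root held 9 genes on chromosome 3B and 8 on chromosome 5A. In the 5A run, from TraesCS5A02G003200 to TraesCS5A02G004700, 6 of 8 genes had 0 reads in each root library, and the apex medians were 282 and 275. Near-identical neighbours could share reads, so single values within a run are uncertain.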

How the data were processed

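Messenger RNA was sequenced from stranded libraries. The submitters' processing notes name Trimmomatic, HISAT2 2.0.5 and StringTie 1.3.3b, while genome build and counting program are not given in the sources used here. The AK58 values deposited by the authors are a signal: in each of the 8 libraries 100% of values were whole multiples, within 0.001, of the value of 1 read, although the tables are named for TPM. The ZM7698 values deposited by the authors are TPM of unknown depth. M6 libraries were not used. The reference table (IWGSC CS RefSeq v2.1) matched 0 identifiers, so planned lists by gene description were not used and no sequence is shown.

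All 8 AK58 libraries were fitted together in limma 3.58.1 (R 4.3.3). Values were taken as log2 after adding 1, the prior variance followed the intensity, and two-sided p-values were adjusted by Benjamini-Hochberg over 69525 identifiers. Calls had an adjusted p under 0.05 and at least a 2-fold change. Contrasts of 1 root library used a fit with the root libraries apart. A lower bound against a group at 0 used 3 reads per library, taking the highest floor of that group; it covers counting error only. Alternatives included edgeR 4.0.16 and DESeq2 1.42.0 on recovered reads. Scripts were tested on simulated data. The comparison, lists and tests were chosen with earlier results of these data known. Named identifiers were the 2 largest increases and 2 largest decreases per contrast with groups that did not overlap and a mean of at least 50, the 2 highest per presence pattern, the ends of the longest runs and the listed regulators, of which those that matter are given.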

Additional observations from a re-analysis of the deposited data

How the results depend on the processing

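Some counts moved by more than 1.5 times. For root against apex, the root and apex libraries alone gave 7524 higher and 4114 lower. For root replicate 2 below apex, median centring gave 20153 and quantile normalization 21906. For root replicate 2 below replicate 1, the counts were 2259 with no filter, 21096 with median centring, 16842 with quantile normalization, 3662 with DESeq2 and 2256 with scaling by library total, which was added once the data had been seen. With each library left out in turn, root against apex had 9050 to 16835 higher and 3690 to 18960 lower, replicate 1 against apex 11857 to 13717 and 12610 to 17862, replicate 2 against apex 14235 to 17242 and 7633 to 11368, and replicate 2 against replicate 1 7444 to 12418 and 343 to 2026. The cause was not tested. A quasi-likelihood test in edgeR on the recovered reads called 13082 higher and 7284 lower in root than apex. Between the root libraries, quantile normalization reversed TraesCS2A02G261200 (-1.64), SVP1-6B (-1.01), VRT2-7A (-1.38) and VRT2-7B (-0.46, log2). With the replicate number as a block, 13965 were higher and 9917 lower in root than apex. The labels do not say whether equal replicate numbers share an origin. Deviations from the group means correlated at 0.43 for root and apex and between -0.12 and 0.16 for the other pairs of tissues. Whether root and apex libraries of the same number share an effect was not tested. Depth limits genes at 0 reads to under 2.24 to 2.82 normalised reads.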

Other observations

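Of the 706 tested noncoding RNAs, few were called between root and apex. In root against apex 25 (3.54%) were higher and 18 (2.55%) lower, where 20.1% and 14% of all tested identifiers were called (limma); the difference between these shares was not tested. Counts of calls for a single root library are not given for noncoding RNAs, because those p-values do not measure how root samples vary. Noncoding RNAs made up 0.0650% and 0.0640% of normalised reads in root replicates 1 and 2 and 0.0966% and 0.116% in apex. ENSRNA050024384 had 0 reads in root replicate 1 and 3167 normalised reads in replicate 2, with 3862 and 5327 in apex and 8064 and 11.5 in the bud libraries, and did not pass in any contrast of root (limma adjusted p = 0.0598 or more). Its bud libraries lay far apart as well.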
